A study of Homo sapiens with 24 samples.

Results

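The extracellular matrix and its integrin receptors were examined as 33 genes measured in PANC-1 cells, 21 for matrix proteins and 12 for receptors. They were chosen by symbol: collagen chains, laminin chains, integrin alpha and beta subunits, fibronectin (FN1), SPARC, thrombospondin 1 (THBS1) and tenascin C (TNC). A gene was kept where none of the 24 libraries had a count of 0, a filter that 12058 of the 54583 listed genes passed. Of 84 matching symbols, 51 did not pass, so the 33 are the members with reads throughout and not the whole families. The matrix members comprised 11 of 44 collagen chains, 8 of 12 laminin chains and 2 of 4 other glycoproteins (SPARC and THBS1). Among the receptors were 7 of 16 integrin alpha and 5 of 8 integrin beta subunits.

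The extracellular matrix is a network of secreted proteins that anchors cells and carries signals to them. Collagens form fibrils, sheets and beaded filaments from chains that wind into triple helices, laminins assemble from an alpha, a beta and a gamma chain into the sheet of the basement membrane, and integrins are paired alpha and beta transmembrane subunits that bind these proteins and connect them to actin. Pancreatic ductal adenocarcinoma is known for a dense stroma, in which fibroblasts make much of the fibrillar collagen while the carcinoma cells contact laminin and collagen through integrins.

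PANC-1 is an established line from a human pancreatic ductal adenocarcinoma, grown here as a monoculture without stroma. Cells on 15 cm plates received DMSO, CID661578 at 40 µM or cercosporamide at 5 µM for 6 h, both compounds being listed as MNK2 inhibitors, by routes that differ in the study: cercosporamide lowers the kinase activity, whereas CID661578 leaves it unchanged and blocks the binding of MNK2 to eIF4G. From each lysate total cytosolic RNA and RNA bound to more than 3 ribosomes (polysome-associated RNA) were sequenced, which gave 6 groups of 4 replicates. The comparison asks which mRNAs change in polysomes beyond any change in total RNA (translational efficiency, TE). The doses of the compounds differ, the treatments share the DMSO controls, and the sources differ on the medium (RPMI in the labels, DMEM in the methods). A single line, dose and time limit the model, and no RNA was added as a standard, so values are relative to each library.

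The total count was between 9268041 and 12184749 in 23 libraries and 1592459 in the polysome library of cercosporamide replicate 4, where a single read is worth 0.662 CPM (the count relative to the TMM-scaled library size). Replicates differed by more than counting error (lowest chi-square per degree of freedom 14.9). Markers of the duct and its epithelium were present for 7 of 10 genes, with a summed level of 10093 CPM in DMSO total RNA, led by KRT8 at 5199 CPM. CDH1 stood at 0.15 CPM in that group, and CFTR was at 0 in every library. Of 6 mesenchymal markers of the line, 3 passed the filter, summed to 1076 CPM and were led by VIM (1059 CPM), with TWIST1 at 0 throughout. For stromal fibroblasts 3 of 10 passed, 2 of them members (COL1A1 and COL3A1), with a sum of 38.4 CPM led by THY1 at 31.5 CPM, while COL1A2, DCN and FAP were at 0 in all libraries. Endothelial (0 of 6 passing, sum 0.356 CPM, KDR highest), acinar (0 of 6, sum 0.281 CPM, CELA3A) and endocrine (0 of 6, sum 0 CPM) markers were at or near 0. Among 9 leukocyte markers the member ITGB2 alone passed, the sum was 3.58 CPM, CD14 was highest at 1.43 CPM, and PTPRC, CD3E and ITGAL were at 0 throughout.

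The members closest to the filter had few reads. COL13A1, a transmembrane collagen, and ITGA1, a collagen-binding subunit, each had a library with 1 read, and COL1A1 and ITGB2 had a lowest count of 3. Just outside, COL12A1, COL6A3 and ITGB8 were at 0 in total RNA of CID661578 replicate 4 only, COL7A1 in total RNA of DMSO replicate 4 and ITGA10 in the shallow polysome library of cercosporamide. COL12A1 had 558 reads over all libraries, more than the 489 of COL13A1. At the other end 11 symbols had no read at all, 7 of the matrix and 4 of receptors. FN1 summed to 20 reads with 15 libraries at 0, TNC to 21 reads with 19 at 0, and COL1A2, the partner of COL1A1 in fibrillar collagen I, to 0 reads. Of the 6 collagen IV chains, the scaffold of basement membranes, COL4A5 alone was a member.

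Receptors took the larger share of the reads. In DMSO total RNA, the 12 receptors held 0.128% ± 0.0112 (SD, n = 4) of the count and the 21 matrix members 0.0370% ± 0.0050. Per kilobase of transcript, ITGB1, the beta subunit shared by most collagen and laminin receptors, was the most abundant at 176 ± 19.2 CPM per kb (mean ± SD of 4 DMSO total libraries). ITGA3, a laminin receptor subunit, followed at 33.2 ± 4.81 CPM per kb, and the neighbours in that order ITGB5 (28.1 ± 3.52), ITGAE (26.3 ± 12.0) and SPARC (26.0 ± 10.6) lay within each other's spread. The most abundant collagen per kb was COL5A2, a fibril-forming chain, at 4.03 CPM per kb, with ITGA1 lowest at 0.197 CPM per kb. Summed per family, the level in total RNA of DMSO was 13.7 CPM per kb for collagens, 33.5 for laminins, 26.6 for SPARC and THBS1, 109 for alpha and 206 for beta subunits.

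Most members of both classes were more abundant on polysomes than in total RNA of DMSO, and whether the classes differ was not tested. Of the 33 members 25 were higher in polysome-associated than in total RNA and 1 was lower (edgeR's quasi-likelihood test, Benjamini-Hochberg adjusted p under 0.15 and over 1.2-fold), where 27.7% of all tested genes were called higher and 30.6% lower. By class, 17 of 21 matrix members were higher and 0 lower, with a median log2 difference of 1.03, against 8 higher and 1 lower of 12 receptors and a median of 0.45. The median of all tested genes was −0.02. In replicates 1 to 4 the matrix median was 0.88, 1.22, 0.73 and 1.57 and the receptor median 0.49, 0.14, 0.55 and 0.69. The matrix value was above the receptor value in each replicate, though the lowest matrix and the highest receptor values lay close. When libraries were scaled within each fraction, the median of all genes moved to 0.26, the matrix median to 1.31 and the receptor median to 0.72, with 27 members higher. Without a replicate term 22 members were higher, ITGB5 and ITGAV being among those lost (adjusted p 0.198 and 0.228 in edgeR's quasi-likelihood test). Their log2 differences were 0.36 and 0.40 without the term and 0.35 and 0.43 with it.

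**Figure D1:**
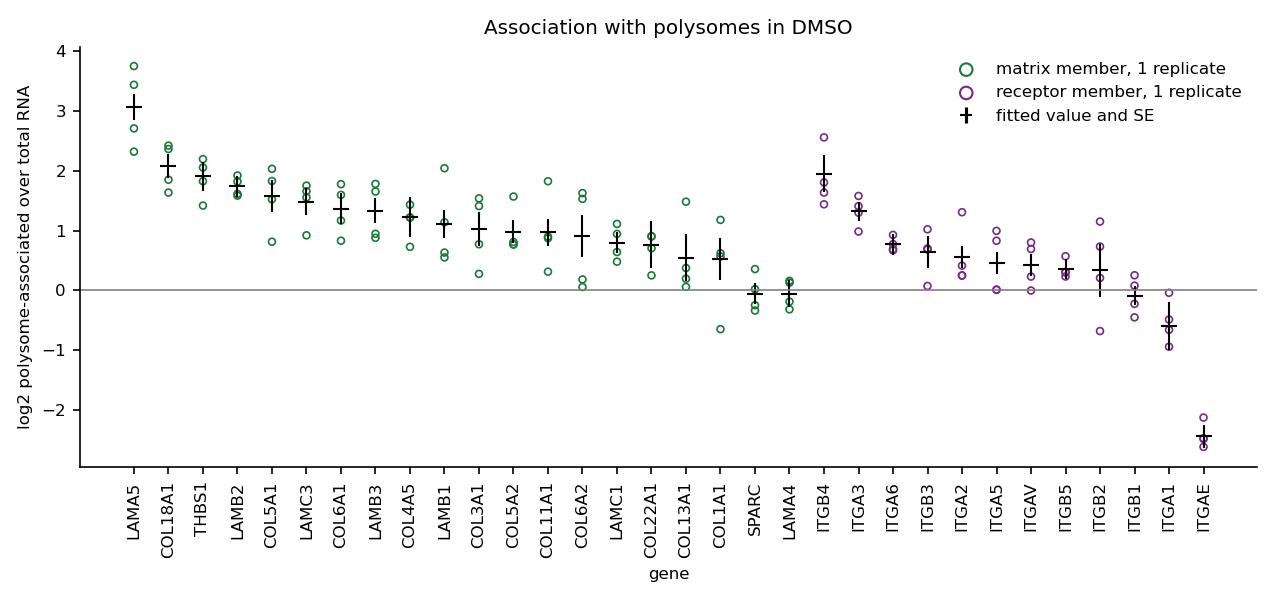
Log2 ratio of polysome-associated to total RNA for 32 members in DMSO (vertical axis), with a circle for each of the 4 replicates, a dash for the fitted value and a bar for its SE. The matrix median was 1.03 and the receptor median 0.45, with LAMA5 highest at 3.07 and ITGAE lowest at −2.44.

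LAMA5, the alpha chain of laminin-511 in many basement membranes, was at the upper end. Its level in DMSO total RNA was 10.8, 14.4, 16.6 and 8.39 CPM in replicates 1 to 4, and in polysome-associated RNA 71.8, 159, 84.1 and 116 CPM. All 4 polysome libraries lay above all total libraries, a log2 difference of 3.07 (SE 0.22, n = 4, Benjamini-Hochberg adjusted p = 1.81e-13 in edgeR's quasi-likelihood test). The gamma chain LAMC3 stood at 5.71, 9.06, 12.0 and 8.30 CPM in total and 19.7, 27.0, 22.9 and 26.7 CPM in polysome-associated RNA, again without overlap (1.49, SE 0.23). Among collagens COL18A1, the source of endostatin in basement membranes, had the largest difference (2.08, SE 0.20), ahead of COL5A1 (1.58, SE 0.26) and COL6A1 (1.37, SE 0.26). THBS1, a secreted glycoprotein that binds CD36 and CD47, followed COL18A1 at 1.91 (SE 0.24). SPARC, a collagen-binding glycoprotein, was at 86.7, 84.1, 49.7 and 138 CPM in total and 68.6, 70.8, 63.7 and 140 CPM in polysome-associated RNA, overlapping groups with replicate 4 the highest in both and a log2 difference of −0.05 (SE 0.18).

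ITGA3 was at 166, 194, 144 and 145 CPM in total and 330, 478, 382 and 434 CPM in polysome-associated RNA of DMSO, which did not overlap (1.32, SE 0.17). ITGB4, the beta subunit of the laminin receptor in hemidesmosomes, had 1.14, 2.44, 3.38 and 1.68 CPM against 3.96, 9.03, 9.52 and 10.9 CPM, also without overlap (1.955, SE 0.30). ITGB1 showed no such gap, with a log2 difference of −0.09 (SE 0.16). ITGAE, the alpha subunit that pairs with beta 7 on intraepithelial lymphocytes and binds E-cadherin, went the other way: 123, 153, 62.0 and 61.8 CPM in total and 19.9, 27.2, 11.01 and 14.0 CPM in polysome-associated RNA. Every polysome value was below every total value, and the log2 difference was −2.44 (SE 0.19, adjusted p = 9.94e-13 in edgeR's quasi-likelihood test). Its partner ITGB7 had no reads in any library. Reads were counted without strand, and 7.65% of the exonic bases of ITGAE overlap genes on the opposite strand, mostly HASPIN, so its count is uncertain there: by default a read over exons of both genes is given to neither, and a read from a gene missing in the annotation used would be counted. The same holds for COL18A1 (18.5%, SLC19A1 opposite), THBS1 (7.58%, FSIP1 opposite), ITGA1 (13.2%, among others PELO) and ITGB3 (33.2%, a coding gene on the same strand).

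Of the 25 members called higher, 18 kept the call whichever replicate was left out, without a replicate term and under each other scaling, filter or tool, as did ITGAE for lower. Leaving out replicates 1 to 4 in turn gave 23, 22, 23 and 22 members higher. Among the calls lost were those of ITGB3, COL22A1 and ITGAV without replicate 1, COL6A2, COL22A1 and ITGB5 without replicate 2, ITGA5 without replicate 3, and COL6A2 and COL22A1 without replicate 4 (adjusted p from 0.159 to 0.279 in edgeR's quasi-likelihood test).

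Matrix and receptor mRNAs also differ in length, and long coding sequences can hold more ribosomes. The median coding length was 4500 nt for matrix members, 3153 nt for receptors and 1386 nt for 10089 tested genes with a value. Across those genes the polysome-to-total difference in DMSO had a Spearman rank correlation of 0.61 with coding length, and across the 33 members 0.49; genes are not independent replicates. With transcript GC the correlation was 0.23 over all 11577 genes with a value and 0.58 over the members (matrix 0.49, n = 21; receptors 0.44, n = 12), and within the classes that with length was 0.25 and 0.23. Among genes of 3000 nt and more, the median difference was 0.85 for all 1413 tested genes, 70.0% of which were called higher, 1.11 for 19 matrix members and 0.51 for 8 receptors. Thus 17 of those 19 matrix members and 6 of those 8 receptors were called higher. How much of the difference between the class medians goes with length or with GC was not tested.

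Cercosporamide changed the TE of 10 members. TE was higher for 9, among them the matrix genes COL5A2, COL11A1, COL4A5 and LAMC1 and the receptors ITGAV, ITGB1, ITGA6 and ITGA2, and lower for ITGAE. Over all tested genes 15.8% were called higher and 12.5% lower. Among matrix members 5 of 21 were higher and 0 lower (median log2 change 0.26), among receptors 4 of 12 were higher and 1 lower (median 0.17), and the median of all tested genes was −0.00. In replicates 1 to 4 the matrix median was 0.66, −0.01, 1.02 and −0.17 and the receptor median 0.75, 0.60, 0.49 and −0.66. The classes therefore overlapped, and in replicate 4 both medians were negative. Replicate 4 holds the shallow library and also the DMSO plate with the highest polysome-to-total medians (matrix 1.57, receptors 0.69). Both compounds share that DMSO plate. With CID661578, without a shallow library, the replicate 4 median was −0.88 for matrix members and −0.00 for receptors. What lowers replicate 4 was not tested. Of the 33 members 8 were above 0 and 2 below 0 in all 4 replicates. The same was not counted over all tested genes, so these numbers do not set the members apart.

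ITGB1 was the most abundant member to change. Its level in polysome-associated RNA was 640, 540, 597 and 705 CPM with DMSO and 1269, 1037, 1499 and 1870 CPM with cercosporamide, and in total RNA 605, 738, 698 and 591 CPM against 515, 444, 821 and 489 CPM. The polysome groups did not overlap and the total groups did. TE was higher by 1.42 on the log2 scale (SE 0.25, n = 4, Benjamini-Hochberg adjusted p = 0.000607 in edgeR's quasi-likelihood test).

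ITGAV, the alpha subunit of receptors for vitronectin and fibronectin, behaved alike. It stood at 63.5, 65.3, 46.5 and 58.9 CPM in polysome-associated RNA of DMSO and at 128, 125, 175 and 171 CPM with cercosporamide, while total RNA held 36.3, 65.3, 39.5 and 36.3 CPM and 26.5, 38.3, 34.4 and 34.0 CPM. Each polysome library with cercosporamide was above each DMSO library, and in total RNA the ranges overlapped, DMSO replicate 2 being high. The change of 1.73 (SE 0.25, adjusted p = 0.000143 in edgeR's quasi-likelihood test) was the largest of the 33. ITGA6, a laminin-binding alpha subunit, was at 72.9, 74.9, 75.9 and 85.1 CPM in polysome-associated RNA of DMSO and 126, 90.1, 122 and 134 CPM with cercosporamide, and at 42.5, 46.9, 47.0 and 44.6 CPM and 35.8, 28.0, 34.3 and 35.7 CPM in total RNA. Neither fraction overlapped, with polysome values higher and total values lower under cercosporamide, and the TE change was 1.04 (SE 0.24, adjusted p = 0.00483). The collagen-binding ITGA2 had a smaller change of 0.56 (SE 0.24, adjusted p = 0.119).

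ITGAE had less of its RNA on polysomes with cercosporamide. Total RNA held 153, 136, 136 and 111 CPM and polysome-associated RNA 7.69, 11.5, 9.69 and 15.2 CPM, against the DMSO values above. Both fractions overlapped with DMSO, whose replicates 1 and 2 were high in each. Within replicates the log2 TE change was −1.21 (SE 0.26, adjusted p = 0.00256 in edgeR's quasi-likelihood test).

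**Figure D2:**
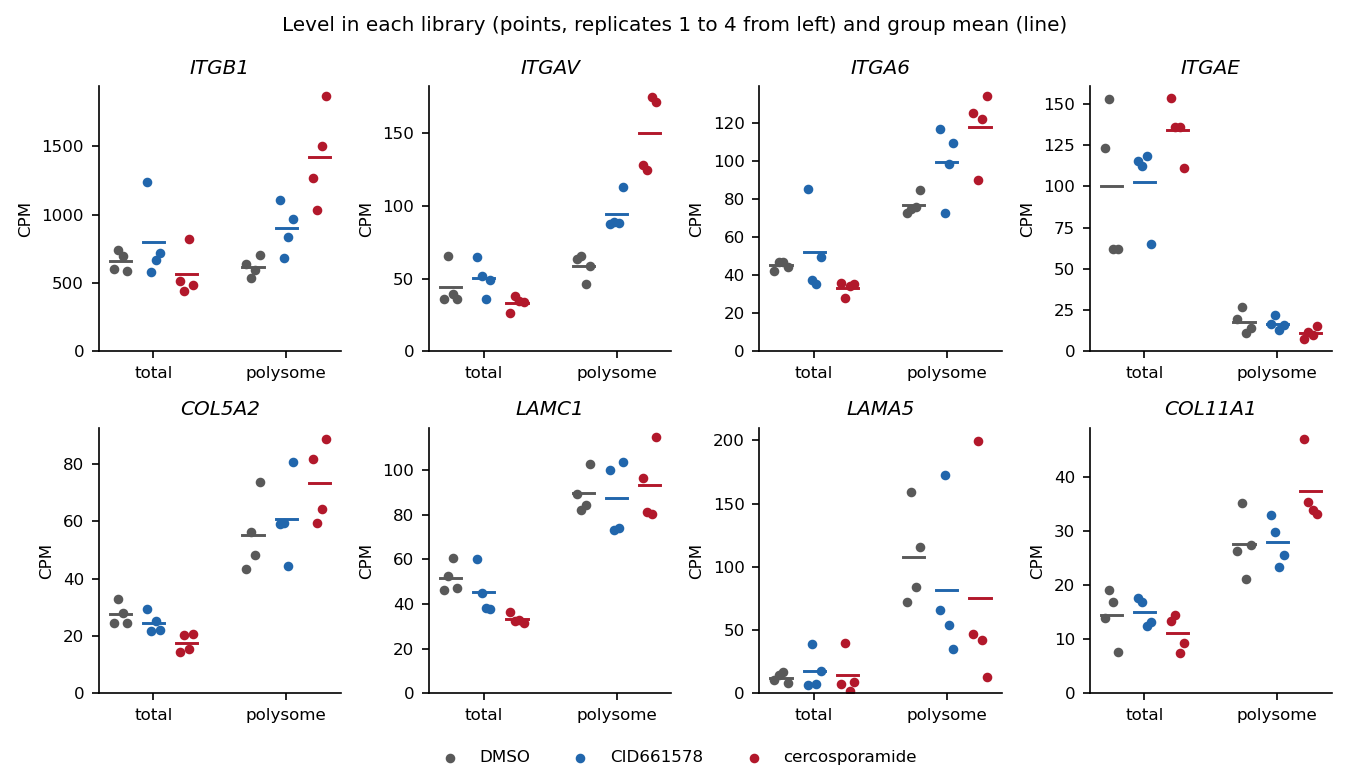
Level of 8 members in CPM (vertical axis) in total and polysome-associated RNA, with a point for each of the 4 replicates and a line for the mean of DMSO, CID661578 and cercosporamide. ITGB1, ITGAV and ITGA6 with cercosporamide lie above DMSO in polysome-associated RNA, and COL5A2 and LAMC1 lie below DMSO in total RNA.

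COL5A2 was the collagen with the smallest p. In total RNA it stood at 24.6, 32.9, 28.1 and 24.6 CPM with DMSO and 14.4, 20.4, 15.4 and 20.6 CPM with cercosporamide, and in polysome-associated RNA at 43.3, 56.2, 48.0 and 73.6 CPM and 81.5, 59.5, 64.1 and 88.7 CPM. Total values with cercosporamide were all below DMSO, while polysome values were higher within each replicate but overlapped between groups. The TE change was 1.06 (SE 0.27, adjusted p = 0.00948 in edgeR's quasi-likelihood test).

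LAMC1 had a similar layout. This gamma chain, present in most laminins, was at 46.3, 52.5, 60.3 and 47.3 CPM in DMSO total RNA and 36.4, 32.4, 32.6 and 31.3 CPM with cercosporamide, but at 89.4, 82.1, 84.3 and 103 CPM and 96.5, 81.3, 80.5 and 115 CPM in polysome-associated RNA. Total values did not overlap and polysome values did, for a TE change of 0.68 (SE 0.23, adjusted p = 0.0441). COL11A1, a fibrillar chain that nucleates fibrils, stood at 14.0, 19.1, 16.99 and 7.60 CPM against 13.4, 14.5, 7.46 and 9.41 CPM in total and 26.3, 35.2, 21.2 and 27.5 CPM against 47.1, 35.5, 33.9 and 33.1 CPM in polysome-associated RNA. The groups overlapped in each fraction, and the TE change was 0.79 (SE 0.31, adjusted p = 0.0864), next to 1.32 (SE 0.54, adjusted p = 0.0943) for COL4A5, all by edgeR's quasi-likelihood test.

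The higher TE of a member could come from either fraction. The study's methods class a change in total RNA without one on polysomes as buffering, with protein levels predicted to stay the same. They count it apart from translational efficiency, a distinction that the calls here do not make. Of the 5 matrix members with higher TE, 4 (COL4A5, COL5A2 and LAMC1 among them) had the larger change in total RNA and 1 in polysome-associated RNA. Of the 4 receptors with higher TE, 1 (ITGA2) had the larger change in total RNA and 3 in polysome-associated RNA. LAMC1 showed log2 changes of −0.64 (SE 0.21) in total and 0.04 (SE 0.16) in polysome-associated RNA, and COL4A5 of −1.39 (SE 0.49) and −0.00 (SE 0.33), whereas ITGAV showed −0.38 (SE 0.23) and 1.35 (SE 0.18). Whether this split differs between the classes was not tested. In total RNA alone none of these members reached an adjusted p under 0.15 in edgeR's quasi-likelihood test, whereas COL4A5, COL5A2 and LAMC1 did once the trend of each library with GC was removed (0.125, 0.106 and 0.054).

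**Figure D3:**
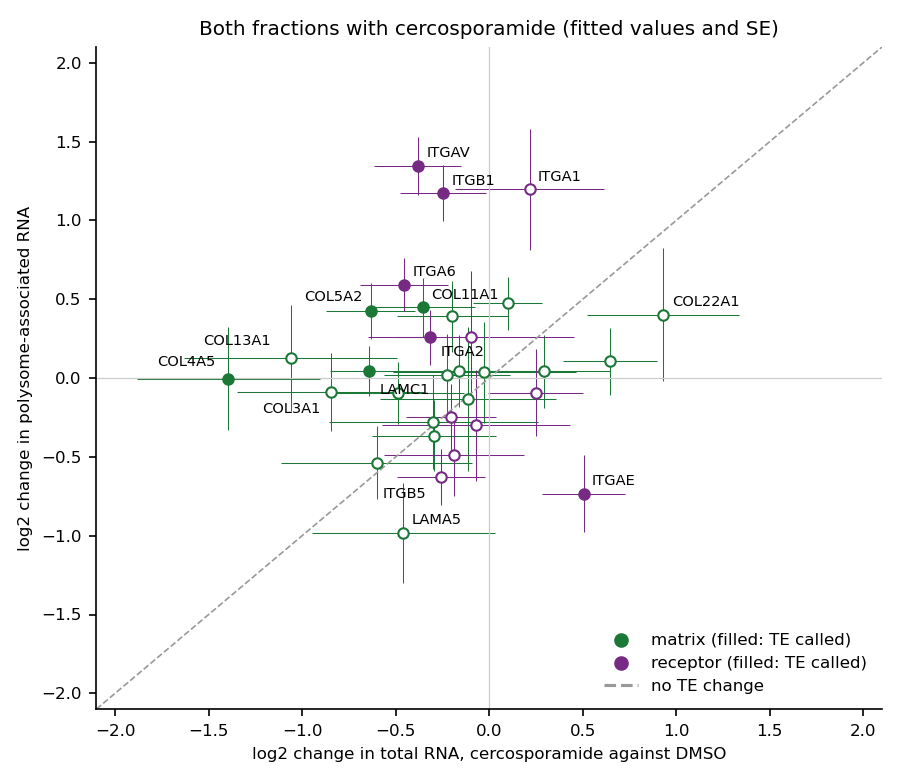
Log2 change with cercosporamide in total RNA (horizontal axis) and polysome-associated RNA (vertical axis) for 32 members, with SE bars; on the dashed line TE is unchanged, and filled points were called for TE. ITGAV and ITGB1 lie high above 0 on the vertical axis, COL4A5 and LAMC1 left of 0 at a vertical value near 0.

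The count of higher members was 9 without the cercosporamide plate of replicate 4 alone, with COL4A5 lost and another member called. There COL4A5 was at 1.10 (adjusted p 0.218 in edgeR's quasi-likelihood test). The count was smaller when a whole replicate was left out. It was 5 without replicate 1, 4 without replicate 2, 7 without replicate 3 and 8 without replicate 4. LAMC1 was no longer called when replicate 2 or 4 was left out (adjusted p 0.166 and 0.154), and COL11A1 without replicate 1, 2 or 3 (0.236, 0.158 and 0.438). COL4A5 was lost without replicate 1, 2 or 4 (0.250, 0.292 and 0.250) and ITGA2 without replicate 1, 2 or 3 (0.365, 0.352 and 0.310), as adjusted p in edgeR's quasi-likelihood test. What ended these calls was not tested, and the fitted changes of LAMC1 (0.68 and 0.61) and COL4A5 (1.26, 1.204 and 1.15) stayed near those of all replicates. That of ITGA2 was 0.43, 0.49 and 0.45, and that of COL11A1 was 0.75 and 0.93 without replicates 1 and 2 but 0.40 without replicate 3. ITGAV, ITGB1, ITGA6 and ITGAE kept their calls in all 14 alternatives. The study used anota2seq, which was not available, and an analysis of partial variance was written after its description. With it, a regression of polysome on total RNA, all 5 matrix calls and ITGA2 were lost (adjusted p 0.624 for COL5A2, by least squares with limma's variance moderation) and 4 members were called higher.

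CID661578 changed the TE of 0 members in edgeR's quasi-likelihood test, beside 0.00829% of all tested genes called higher and 0.199% called lower. Those shares, 1 gene higher and 24 lower, became 97 and 242 genes without replicate 1 and 24 and 30 with DESeq2, while the members stayed at 0. The study, with anota2seq, reported more translationally regulated mRNAs with CID661578 than were called here. The absence of calls therefore does not show that the TE of the members was unchanged. At an unadjusted p under 0.05 there were 0 members higher and 2 lower, beside 595 higher and 473 lower of 12058 tested genes. DESeq2 and the analysis of partial variance likewise called 0 members. The median log2 TE change was −0.09 for matrix members, −0.03 for receptors and 0.03 for all tested genes. In replicates 1 to 4 the matrix median was 0.17, −0.06, 0.11 and −0.88 and the receptor median −0.05, 0.17, −0.00 and −0.00, so the matrix value of replicate 4 stood apart. Without replicate 4 the matrix median was 0.08 and the receptor median 0.09. Of the 33 members 2 were above 0 and 4 below 0 in all replicates, again without a count over all tested genes to compare.

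The 2 members at an unadjusted p under 0.05 had few reads. COL22A1, a collagen of tissue junctions, was at 1.66, 1.22, 1.30 and 1.68 CPM in total RNA of DMSO and 1.92, 2.75, 3.44 and 4.10 CPM with CID661578, and at 2.83, 2.46, 1.59 and 3.30 CPM and 1.93, 4.36, 2.82 and 0.787 CPM in polysome-associated RNA. Total RNA with the compound lay above DMSO in every library and polysome-associated RNA overlapped (TE change −1.22, SE 0.59, adjusted p = 0.557). ITGB4 had 1.66, 6.48, 3.26 and 4.96 CPM in total and 5.79, 13.2, 4.43 and 4.37 CPM in polysome-associated RNA with CID661578, which overlapped the DMSO values in both fractions (−1.24, SE 0.54, adjusted p = 0.511). LAMC3 stood at 5.33, 16.4, 5.95 and 19.0 CPM in total and 18.1, 30.9, 10.9 and 15.2 CPM in polysome-associated RNA, overlapping DMSO as well (−0.70, SE 0.37, adjusted p = 0.586, edgeR's quasi-likelihood test). ITGAV, the receptor next in order of p, had 65.2, 52.0, 35.8 and 49.0 CPM in total and 87.5, 89.0, 88.4 and 113 CPM in polysome-associated RNA. Its polysome values were all above DMSO, and the TE change was 0.49 (SE 0.25, adjusted p = 0.569).

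**Figure D4:**
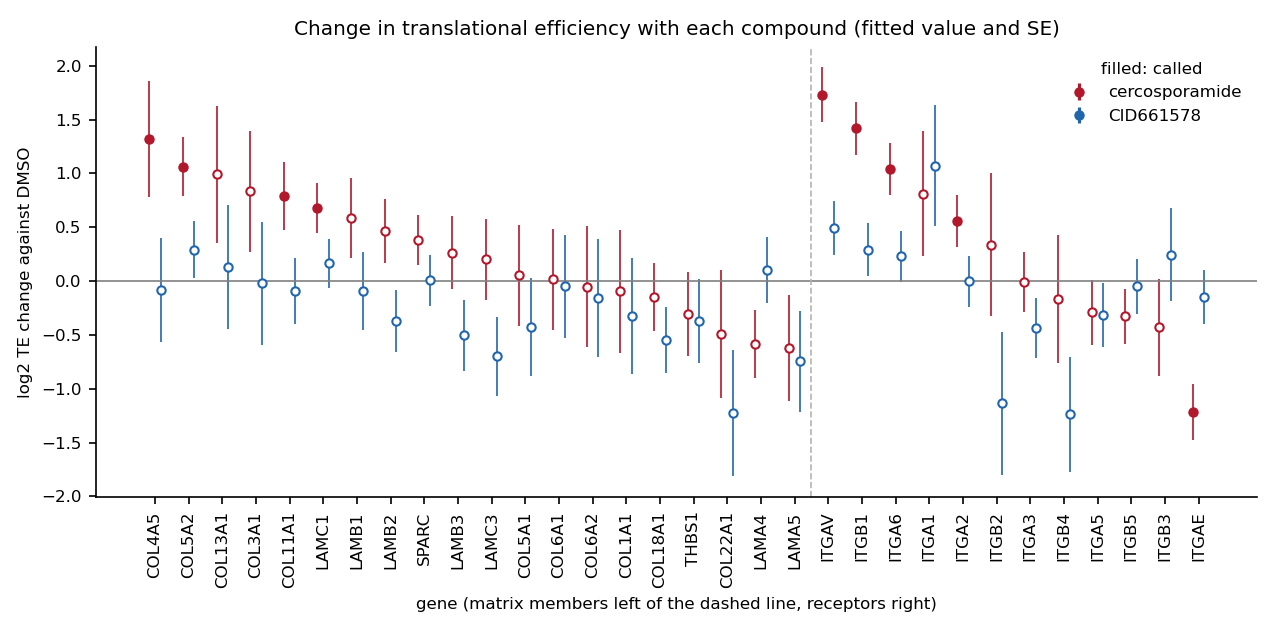
Log2 change in translational efficiency against DMSO (vertical axis) for 32 members with cercosporamide and CID661578, as fitted value and SE, filled where called. With cercosporamide 8 members are filled above 0 and ITGAE below, with CID661578 none is filled.

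The direct test between the compounds, at 40 µM and 5 µM, called 1 member higher with CID661578 (ITGAE, 1.07, SE 0.26) and 8 lower, beside 7.89% and 7.57% of all tested genes. The lower members included COL11A1, COL4A5, COL5A2, LAMB2, ITGA6, ITGAV (−1.24, SE 0.25) and ITGB1 (−1.13, SE 0.25). ITGAE, ITGAV and ITGB1 kept the call in all 13 alternatives. The other 6 each lost it without at least 1 replicate (adjusted p from 0.157 to 0.436 in edgeR's quasi-likelihood test), and the total of 9 became 5, 3, 6 and 7 without replicates 1 to 4. Since the doses differ, the compounds cannot be told apart from their doses.

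Total RNA alone gave 0 called members with either compound in edgeR's quasi-likelihood test at an adjusted p under 0.15. At that limit the shares of all tested genes were 0.29% higher and 0.0995% lower with cercosporamide and 0.307% and 0.133% with CID661578. They do not apply to the counts at an unadjusted p that follow, which are not set beside all tested genes. With cercosporamide 3 members were higher (COL22A1, LAMA4 and ITGAE) and 3 lower (COL4A5, COL5A2 and LAMC1) at an unadjusted p under 0.05, and DESeq2 called 1 member. LAMC1 had the smallest p of these (−0.64, SE 0.21, adjusted p = 0.275). With CID661578 there were 2 higher (COL22A1 and ITGA2) and 0 lower at an unadjusted p under 0.05, and DESeq2 called 0. COL22A1 had the smallest p (1.04, SE 0.40, adjusted p = 0.606), and its cercosporamide values of 3.22, 3.03, 1.80 and 3.17 CPM also lay above DMSO.

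In polysome-associated RNA cercosporamide gave 7 of 33 members higher and 4 lower, near the 18.3% and 13.8% of all tested genes. The matrix members were split between SPARC (0.47), COL11A1 (0.45) and COL5A2 (0.42), which were higher, and LAMA5 (−0.98) and COL5A1 (−0.54), which were lower. The receptors ITGAV (1.35), ITGA1 (1.198), ITGB1 (1.17) and ITGA6 (0.59) were higher, and ITGAE (−0.73) and ITGB5 (−0.63), a vitronectin receptor subunit, lower. For ITGA1 replicate 4 with cercosporamide held 1 read and lay below DMSO (−0.98), and its call was lost with GC trends removed (0.70, adjusted p 0.236 in edgeR's quasi-likelihood test). The medians were 0.04 for matrix members, 0.08 for receptors and −0.01 for all tested genes. The smallest p was that of ITGAV (SE 0.18, adjusted p = 4.3e-05 in edgeR's quasi-likelihood test). LAMA5 was at 47.0, 200, 42.1 and 12.6 CPM, a wide spread in which only replicate 2 exceeded its DMSO partner. SPARC was at 104, 117, 76.4 and 176 CPM, each above DMSO of the same replicate although the ranges overlapped.

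Several of these calls were lost without the replicate term or with fewer libraries. What ended the calls was not tested. The fitted changes of COL5A1 (−0.59, −0.63 and −0.49 without replicates 1 to 3) stayed about as large, as did those of SPARC (0.45 without the term, 0.43 and 0.39 without replicates 1 and 2). Others moved further, as LAMA5 (−0.49 without the term) and COL5A2 (0.26 without replicate 1). Without the replicate term 6 members were called in polysome-associated RNA with cercosporamide, and LAMA5, COL5A1, SPARC, COL5A2 and COL11A1 were lost (adjusted p 0.671, 0.379, 0.388, 0.348 and 0.257). Leaving out replicate 1 gave 7 members, ITGAE (0.267), COL5A1 (0.200), SPARC (0.179), COL5A2 (0.433) and COL11A1 (0.384) being lost. Without replicate 2 ITGAE (0.270), COL5A1 (0.169) and SPARC (0.239) were lost, without replicate 3 COL5A1 (0.209), COL5A2 (0.253) and COL11A1 (0.357), and without replicate 4 COL5A2 (0.193) and COL11A1 (0.174), as adjusted p in edgeR's quasi-likelihood test. ITGA6, ITGAV, ITGB1 and ITGB5 kept their calls in all 13 alternatives.

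CID661578 gave 2 of 33 members higher and 1 lower in polysome-associated RNA, close to the 6.16% and 3.96% of all tested genes. The counts therefore do not set the members apart, and all 3 were receptors. ITGAV was higher by 0.68 (SE 0.18, adjusted p = 0.044) and ITGB1 by 0.53 (SE 0.17, adjusted p = 0.09999), and ITGB5 had a change of −0.51 (SE 0.18, adjusted p = 0.115), all in edgeR's quasi-likelihood test. ITGB1 was at 1108, 686, 837 and 968 CPM, above DMSO of the same replicate in 4 of 4, and its total RNA was at 1242, 583, 669 and 717 CPM, replicate 1 being high in both. Without the replicate term 0 of the 3 were called (adjusted p 0.250, 0.443 and 0.417 in edgeR's quasi-likelihood test). Their fitted changes of 0.69, 0.54 and −0.51 were about as large. DESeq2 called 5 members. Without replicate 1 only ITGAV was called, and without replicate 3 or 4 no member (ITGAV 0.58 and 0.59, adjusted p 0.210 and 0.180). Without replicate 2 ITGB1 (0.59, adjusted p 0.158) and ITGB5 (−0.48, adjusted p 0.243) were lost in edgeR's quasi-likelihood test while 2 other calls passed. The median was −0.16 for matrix members and 0.02 for receptors.

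The members with higher TE had a lower GC content over the whole transcript, which the choice of members did not use. Transcript GC was 38.3% to 50.8% for the 9 members higher with cercosporamide (median 47.6%), 54.6% for ITGAE and a median of 59.5% for the 23 not called. All 9 were among the 15 members under 51% GC, a limit chosen after the values were seen. By region, also compared after the values were seen, the median of the 9 and of the 23 was 33.3% and 48.2% in the 3′ UTR and 51.6% and 60.9% in the coding sequence, but 73.0% and 71.9% in the 5′ UTR, which showed no such difference. Matrix members had a median GC of 58.8% and receptors 52.2%, against 47.5% for 11577 tested genes with a value. The Spearman correlation of the TE change with GC across genes was −0.53 with cercosporamide and −0.57 with CID661578 over all those genes, and −0.48 and −0.76 over the 33 members. Over the 12 receptors it was −0.61 and −0.95, over the 21 matrix members −0.32 and −0.57. These are descriptions over genes from the same libraries, and the 2 treatments share their controls.

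Ranges of GC held few members of each class. Under 45% GC the median TE change with cercosporamide was 0.52 for all tested genes, of which 35.2% were called higher (1623 higher, 227 lower), and 1.04 for 5 receptors, of which 4 were called higher, with 0 matrix members in the range. From 45% to 55% it was −0.16 for all tested genes (5.94% higher; 230 higher, 604 lower), 0.69 for 10 matrix members (5 higher, 0 lower) and −0.43 for 3 receptors (0 higher, 1 lower). At 55% and above it was −0.35 for all tested genes (1.03% higher; 32 higher, 575 lower), 0.01 for 11 matrix members and −0.09 for 4 receptors, with 0 members called. Only the range from 45% to 55% set the classes apart, and that difference was not tested. After the trend of each library with GC was removed, 9 members were still higher, LAMB2 (0.80) having replaced ITGA2 (−0.02), and LAMA4 (−0.74) joined ITGAE as lower. The matrix median became 0.57 and the receptor median 0.20, with ITGAV at 1.03 (SE 0.22) and ITGB1 at 0.79 (SE 0.22). Total RNA with cercosporamide then had 1 member higher and 4 lower, beside 566 higher and 192 lower of 11577 genes in place of 35 and 12, and polysome-associated RNA with CID661578 had 0 members, beside 179 and 103 genes in place of 743 and 477. Whether GC content takes part in these changes was not tested.

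**Figure D5:**
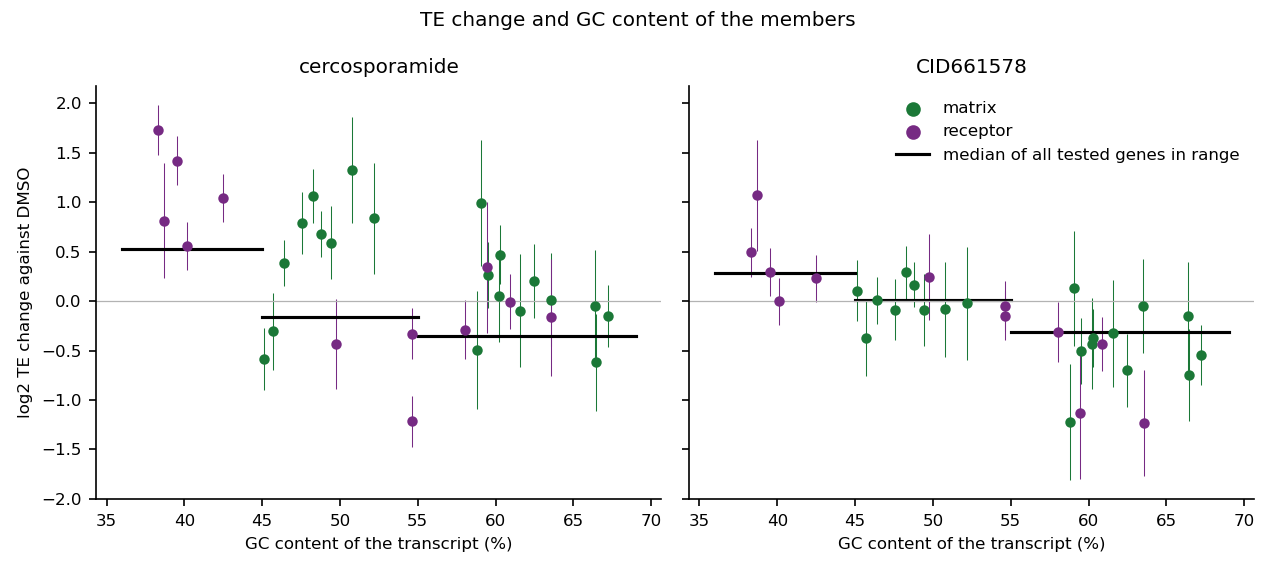
Log2 TE change against DMSO with SE (vertical axes) and GC content of the transcript in percent (horizontal axes) for 32 members under each compound, with black lines for the median of all tested genes under 45%, from 45% to 55% and above. Under cercosporamide those medians are 0.52, −0.16 and −0.35, and matrix members between 45% and 55% have a median of 0.69.

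The difference in base composition can be read in the coding sequence. Shown are 30 codons from the centre of the longest coding exon of 3 members with higher TE under cercosporamide and of 3 without a call (LAMA5, ITGB4 and COL18A1), selected after the values were seen. Sequences are from the GRCh38 reference with GENCODE v44 annotation, 5′ to 3′ on the coding strand, in lower case with a capital where the last base of a codon is G or C. They lie in coding exons at chr2:186641444-186641533 (plus strand, ITGAV), chr10:32925946-32926035 (minus, ITGB1), chr2:189039372-189039461 (minus, COL5A2), chr20:62367051-62367140 (minus, LAMA5), chr17:75730328-75730417 (plus, ITGB4) and chr21:45468469-45468558 (plus, COL18A1).
ITGAV: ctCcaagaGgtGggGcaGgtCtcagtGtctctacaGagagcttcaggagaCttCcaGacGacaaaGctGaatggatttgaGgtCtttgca
ITGB1: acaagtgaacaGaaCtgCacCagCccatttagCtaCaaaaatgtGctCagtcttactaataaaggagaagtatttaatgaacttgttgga
COL5A2: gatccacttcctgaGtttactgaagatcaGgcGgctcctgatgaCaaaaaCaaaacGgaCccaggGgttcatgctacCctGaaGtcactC
LAMA5: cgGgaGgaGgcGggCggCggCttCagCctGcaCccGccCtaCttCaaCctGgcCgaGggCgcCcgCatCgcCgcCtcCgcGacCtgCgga
ITGB4: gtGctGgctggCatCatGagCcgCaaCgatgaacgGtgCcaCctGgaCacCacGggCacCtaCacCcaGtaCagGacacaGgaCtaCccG
COL18A1: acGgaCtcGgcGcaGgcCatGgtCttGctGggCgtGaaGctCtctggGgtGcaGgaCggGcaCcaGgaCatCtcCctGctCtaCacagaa
Over these 30 codons, 16 end in G or C in ITGAV, 9 in ITGB1 and 12 in COL5A2, against 29 in LAMA5, 26 in ITGB4 and 27 in COL18A1. Over the whole coding sequence the share was 40.5% for ITGAV, 38.5% for ITGB1 and 28.8% for COL5A2, and 81.6% for LAMA5, 82.8% for ITGB4 and 72.2% for COL18A1. COL3A1 (27.0%) and ITGA1 (38.0%) were low in this share and not called. COL1A1 (47.4%), LAMA4 (48.6%), LAMB1 (51.1%) and COL22A1 (51.9%), also not called, lay below the called LAMC1 (54.5%). The order therefore did not follow the calls for every member. ITGAE, lower in TE, had 66.9%.

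Other genes of matrix assembly and adhesion were counted by list, beside 15.8% of all tested genes called higher and 12.5% lower for TE with cercosporamide. There TE was higher for 5 and lower for 1 of 27 genes of collagen processing (median 0.18), among them the lysyl hydroxylase PLOD2 (1.46, SE 0.24), SEC23A of the coat that exports procollagen (1.42, SE 0.29), the prolyl hydroxylase subunit P4HA1 (0.94, SE 0.24) and the export receptor MIA3 (0.90, SE 0.31). Of 17 other basement membrane and matrix proteins 4 were higher and 1 lower (median 0.17), with EFEMP1 at 1.62, NTN4 at 1.12, CCN1 at 0.73 and CCN2 at 0.52. Of 15 matrix proteases and inhibitors 3 were higher and 0 lower (median 0.27), the membrane proteases ADAM9 (1.81, SE 0.25) and ADAM10 (1.10, SE 0.27) and the collagenase MMP1 (1.203, SE 0.34). Among 16 other matrix receptors the hyaluronan receptors HMMR (2.18, SE 0.27) and CD44 (0.62, SE 0.24) were higher and 0 lower (median −0.00). Of 37 genes of the integrin adhesion complex 2 were higher, the kindlin FERMT2 (0.97) and ENAH (0.87), and 3 lower, among them ITGB1BP1 (−0.84), which binds the tail of beta 1, and PARVB (−1.51), with a median of −0.01. The share called higher was 18.5% in collagen processing, 23.5% among other matrix proteins, 20% among proteases and inhibitors, 12.5% among other receptors and 5.41% in the adhesion complex. Within the members, 2 of 5 fibrillar collagen chains, 1 of 3 laminin-511 chains and the single collagen IV chain were higher.

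With CID661578 TE was called for 0 genes of all these lists in edgeR's quasi-likelihood test. At an unadjusted p under 0.05 there were 1 higher and 2 lower in collagen processing, 1 higher among proteases and inhibitors, 1 higher among other receptors and 2 lower in the adhesion complex, and 0 in the other lists. Over all 12058 tested genes, 595 were higher and 473 lower at that limit. In total RNA the compound gave 2 higher of 17 genes in the list of other matrix proteins, beside 0.307% of all tested genes higher and 0.133% lower. They were CCN2 (1.00, SE 0.20) and CCN1 (0.97, SE 0.20), matricellular proteins that bind integrins. Total RNA of the other lists is not given.

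In DMSO 27.7% of all tested genes were called higher on polysomes and 30.6% lower. Of the adhesion complex 25 of 37 genes were higher and 4 lower (median 0.64), and among the members 3 of 3 laminin-511 chains, 4 of 5 fibrillar collagen chains and the collagen IV chain were higher. FLNA (2.07), LPP (1.9604) and TLN1 (1.87), large actin linkers of adhesions, were higher and ITGB1BP1 (−1.89) lower. Collagen processing had 12 of 27 higher and 3 lower (median 0.25; P3H3 1.23, TGM2 1.00, PLOD3 0.96, P3H1 0.74). Other matrix proteins had 8 of 17 higher and 1 lower (median 0.34), led by the basement membrane proteoglycans HSPG2 (3.25) and AGRN (2.83), ahead of LTBP2 (1.29) and THBS3 (1.13). Proteases and inhibitors had 4 of 15 higher and 5 lower (median −0.12; MMP15 1.49, MMP2 0.54, RECK −0.82, ADAM9 −0.46). Of 16 other matrix receptors 7 were higher, such as GPC1 (1.31), DDR1 (1.03) and CD82 (0.78), and 3 lower, such as CD47 (−0.93), with a median of 0.20.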

How the data were processed

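The counts deposited by the authors are whole reads per RefSeq gene in 24 Smart-seq2 libraries. Reads were cleared of rRNA (BBDuk), aligned to hg38 (HISAT2) and assigned by RSubread featureCounts at its defaults, which ignore strand; bcl2fastq 2.20.0.422 and FastQC 0.11.8 are also named. The 12058 genes without a 0 were scaled by TMM and tested with edgeR 4.0.16 (quasi-likelihood, Benjamini-Hochberg adjustment; R 4.3.3), after a test on simulated data. TE was the interaction of fraction and compound beside plate and polysome-by-replicate terms; single fractions and DMSO had replicate beside treatment or fraction. Calls needed an adjusted p under 0.15 and, for TE and DMSO, over 1.2-fold. Each SE was the absolute log2 change divided by the square root of the test's F statistic, not the spread of the replicates. The study's methods name replicate as the batch, and same-numbered libraries deviated together in 13 of 16 pairs (r over 0.1, range −0.019 to 0.584). GC and lengths came from GENCODE v44. Members with library values were the most abundant per kb in each family, the 4 matrix and 4 receptor members of smallest p for TE with cercosporamide (2 and 2 with CID661578) and the smallest p elsewhere; lists gave up to 4 genes. Not every such gene is named or drawn. Members and lists were chosen with earlier results of these data known. Alternatives were no replicate term, DESeq2 1.42.0 (test or size factors), TMM within fractions, other filters, GC trends removed, partial variance (limma 3.58.1), an adjusted p of 0.05, and leaving out replicates or a plate.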

Additional observations from a re-analysis of the deposited data

Results flagged for a closer look

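Of 90 groups of 4 replicate values, from the members chosen for library values and the medians of both classes, 7 held a library far from the other 3, judged by its gap to the nearest library divided by the range of the group; chance flags about 1 in 20 groups. The ratio was 0.830 for COL11A1 in polysome-associated RNA with cercosporamide (replicate 1 highest at 47.1 CPM) and 0.869 for COL22A1 in total RNA with cercosporamide (replicate 3 lowest at 1.80 CPM). It was 0.884 for ITGAE in total RNA with CID661578, where replicate 4 was lowest at 65.2 CPM. ITGAV stood apart in 2 groups, DMSO total RNA (0.888, replicate 2 highest at 65.3 CPM) and polysome-associated RNA with CID661578 (0.939, replicate 4 highest at 113 CPM). ITGB4 in polysome-associated RNA with CID661578 had 0.839 (replicate 2 highest at 13.2 CPM) and SPARC in polysome-associated RNA of DMSO 0.908 (replicate 4 highest at 140 CPM). What sets these libraries apart was not tested.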

How the results depend on the processing

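The calls of TE with CID661578 and of total RNA with CID661578 stayed at 0 members in every alternative run, and the members higher on polysomes in DMSO numbered 21 to 27. TE with cercosporamide, 9 members higher and 1 lower, gave 8 and 1 without the replicate block, 4 higher without a filter, 4 higher and 2 lower with partial variance, 5 higher at an adjusted p of 0.05, 2 lower with DESeq2 and 2 lower with GC trends removed, where ITGA2 turned from 0.56 to −0.0242. The difference between compounds, 9 members, gave 5 without a filter, 14 with GC trends removed and 4 at an adjusted p of 0.05. Total RNA with cercosporamide, 0 members, gave 5 with GC trends removed and 1 with DESeq2. Polysome-associated RNA with cercosporamide, 11 members, gave 6 without the replicate block and 7 at an adjusted p of 0.05. With CID661578 its 3 members became 0 without the block, 6 without the cercosporamide plate of replicate 4, 0 with GC trends removed, 5 with DESeq2 and 1 at an adjusted p of 0.05. Leaving out each replicate gave 4 to 8 members higher and 1 to 2 lower for TE with cercosporamide, 3 to 7 for the difference, 7 to 11 and 0 to 3 for polysome-associated RNA with cercosporamide and CID661578, and receptor medians of TE with CID661578 from −0.0961 to 0.0896. Fewer libraries, a stricter limit or more genes tested enter some of these alternatives; otherwise the cause was not tested. With TMM within each fraction the receptor median in DMSO was 0.72, and 66.0% of all calls there were higher in place of 47.5%; for total RNA with cercosporamide the share was 60.0% (6 genes higher and 4 lower) in place of 74.5% (35 and 12), and there 0 genes were called without the block, 268 and 128 with DESeq2 and 566 and 192 with GC trends removed. With DESeq2 size factors it was 46.8% in place of 57.0% for polysome-associated RNA with cercosporamide and 61.5% in place of 51.02% for the difference. Without a filter the median of all genes for TE with cercosporamide was −0.14. The replicate block changed no other count of members by over 1.5 times. The shallow library of cercosporamide replicate 4 limits members of few reads, and 4 replicates of a single line limit all errors given.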
